A study of Mus musculus with 6 samples.

Results

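The genes described here are 47 genes of the DNA replication machinery, from the licensing of origins through the enzymes of the fork to the supply of nucleotides, measured in cells sorted from mouse bone marrow. A gene was measured by a probe set of the Affymetrix MOE430_2 array that names that gene alone, and where several did, the one brightest on average across the 6 arrays was used. All 47 had such a probe set, out of 18193 genes measured this way. The cells came fresh from the marrow of untreated adult wild-type mice of the C57BL/6 background and were gated as CD45-, TER119- and CD31-, the surface proteins of leukocytes, erythroid cells and endothelial cells. Within that gate, 3 arrays measured EBF2+ cells and 3 measured EBF2- cells, where EBF2 is a transcription factor found in mesenchymal cells. The series title calls both stromal cells. Each RNA sample came from 1000 or 2000 cells and went through dual amplification, and which sample had which number is not stated. The labels do not say how EBF2 was detected, the exact age of the mice or whether replicates came from separate animals. The p-values therefore reflect differences among these samples alone, and some of that spread may be technical.

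A eukaryotic cell copies its genome once per division. In G1, the origin recognition complex, Cdc6 and Cdt1 load the ring-shaped Mcm2 to Mcm7 helicase on DNA, a step called licensing that geminin blocks once S phase has begun. The kinase Cdc7 with its activator Dbf4, together with Cdc45 and the GINS complex, then turns the ring into an active helicase, and polymerases, the sliding clamp and its loader follow at the fork. Many of these genes are transcribed under E2F factors as cells enter S phase and are low in resting cells. In the bone marrow, blood progenitors divide often and mature stromal cells rarely.

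The values are log2 of the RMA signal, and a difference is always Ebf2-positive minus Ebf2-negative on that scale, from limma with Benjamini-Hochberg adjustment over all 18193 genes. A gene was called at an adjusted p under 0.05. Ebf2 itself was at 8.13, 8.80 and 8.04 on Ebf2-positive replicates 1, 2 and 3 and at 3.10, 4.02 and 3.84 on the Ebf2-negative ones, so the sort label held on every array. Pearson correlations between arrays ran from 0.919 to 0.924 within the Ebf2-positive group, from 0.968 to 0.977 within the Ebf2-negative group and from 0.825 to 0.873 between groups. Below, values by array are listed in the order of replicates 1, 2 and 3. Signals of different genes are not set against each other, because probe sets differ in brightness.

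Replication genes were lower in the Ebf2-positive cells almost throughout. Of the 47 genes, 42 (89.4%) were called lower and 0 higher, and the unadjusted p was under 0.05 for 45 lower and 0 higher genes. Over all 18193 genes, 13.6% were called lower and 10.8% higher, 24.4% in either direction. The median difference of the 47 was -3.21, or 9.28-fold, against a median of 0.07 over all genes, and every one of the 47 differences was below 0, although that of Orc4 changed sign under 2 of the scalings tried. With the mean of all probe sets of each gene in place of the brightest one, the median of the 47 was smaller, at -2.65. Called folds ran from 2.80 for Pola2 to 48.9 for Cdc7. A fall of at least 4-fold was called for 39 of the 47 (83%), against 5.94% of all genes, and a fall of at least 16-fold for 8 (17.0%), against 0.759%. The mean of 4 of the 47 (8.51%, against 3.17% of all genes) lay below the median probe set in the Ebf2-positive cells alone, so the folds of Orc1, Cdc7, Gins3 and Rfc3 are not exact. The groups did not overlap for 45 of the 47 genes (95.7%), against 21.2% of all genes with every Ebf2-positive array below every Ebf2-negative one. In bulk samples, fewer cells of a type and less RNA per cell cannot be told apart. Leaving out Ebf2-negative replicate 3 gave the lowest count among single arrays left out, 35 lower genes. That fit called 7.67% of all genes lower.

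**Figure D1:**
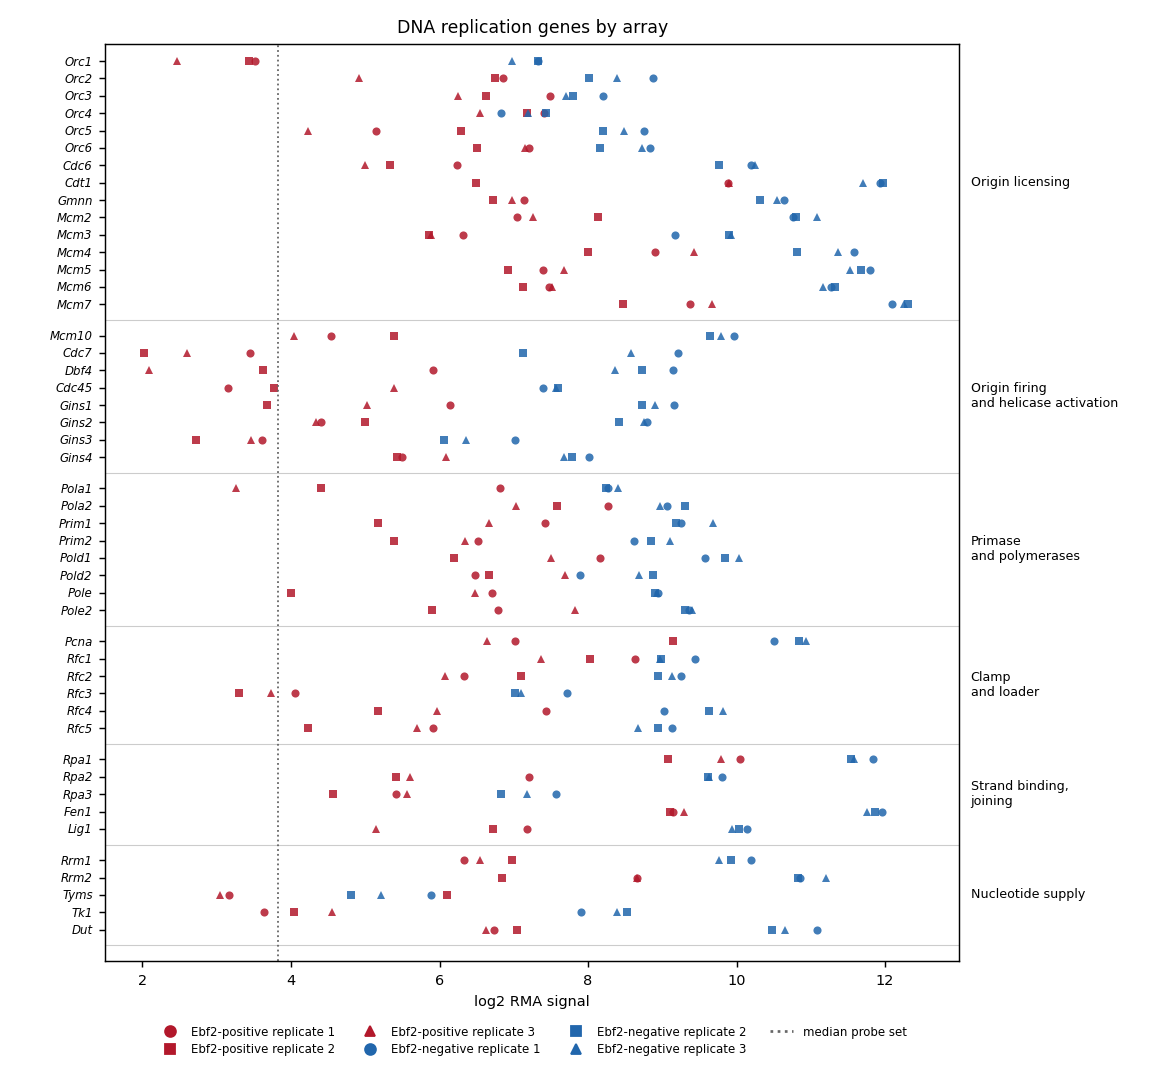
The log2 RMA signal of each of the 47 replication genes (rows, grouped by role) on the 6 arrays, with red for Ebf2-positive and blue for Ebf2-negative cells and a marker shape for each replicate number. The dotted line is the median probe set, at 3.83. The groups are apart for 45 genes, and the red points of Cdt1, Dbf4, Pola1, Tyms, Pole and Pcna are spread most widely.

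The signal of blood-cell markers moved with the groups as well, although the gate excluded cells carrying CD45 or TER119, and the Ebf2-negative arrays held clear erythroid and leukocyte signal. All 15 measured erythroid marker genes were called lower in the Ebf2-positive cells, with a median difference of -3.85. Their summed linear signal was 714 to 1190 on the Ebf2-positive and 16900 to 18300 on the Ebf2-negative arrays. Rhag, of the erythroid Rh complex, and Slc4a1, the red cell anion exchanger, differed by -7.43 and -6.04, and Rhag, Trim10 and Epb42 lay below the median probe set in the Ebf2-positive cells. RMA gives no values of 0. Of 12 pan-leukocyte genes, 8 were called lower, led by Ikzf1, a lymphoid transcription factor (-3.96), and Cd48, a leukocyte surface protein (-3.70). Their summed signal was 701 to 1100 against 3310 to 4630, with Cd48, Was and Vav1 below the median probe set in the Ebf2-positive cells. Ptprc, Cd53, Cd52 and Coro1a were not called. Ptprc, the gene of CD45, was at 6.68, 6.76 and 3.59 against 8.78, 7.98 and 8.23 (-2.65, limma adjusted p = 0.0698). All 5 basophil and mast cell genes (91.2 to 222 against 1020 to 2640) and 4 of 6 megakaryocyte genes (235 to 451 against 710 to 1300) were called lower too. Mcpt8 and Ms4a2 (-5.89 and -5.40) and Pf4 and Ppbp (-3.10 and -2.24) had the largest differences in those lists, and Mcpt8, Ms4a2, Fcer1a and Ppbp lay below the median probe set in the Ebf2-positive cells. The part of these cells in the differences of the replication genes was not tested.

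Stromal markers went the other way or did not pass. All 12 fibroblast and matrix genes and all 8 pericyte and smooth muscle genes were called higher, with summed signals of 55500 to 65700 against 2660 to 6490 and of 15100 to 17500 against 240 to 572. Dpt and Col14a1, matrix proteins, led the former list (7.53 and 7.45), and Acta2 and Rgs5, genes of mural cells, led the latter (7.01 and 6.60). Col14a1, Mfap5 and Myh11 lay below the median probe set in the Ebf2-negative cells, so their differences and ranks are not exact. Of 8 marrow reticular genes, such as Cxcl12 and Lepr, 0 were called by limma, and 0 had an unadjusted p under 0.05. Their summed signal was 9690 and 10400 on the arrays numbered 2 and 3780 to 5100 on the other 4 arrays. Their mean log2 signal was 7.651, 9.029 and 7.382 in Ebf2-positive cells against 8.041, 9.395 and 8.051 in the other group. That mean was highest on the arrays numbered 2 and, at each number, lower in the Ebf2-positive cells. Of the 8 differences, 5 were below 0. Without both arrays numbered 2, 38 of the 47 replication genes were called lower and 0 higher, where 9.03% of all genes were called lower. Of 8 endothelial genes, Tek and Esam were called higher (2.51 and 2.48). The endothelial list summed to 837 to 1600 against 231 to 604, with Pecam1, the gene of CD31, below the median probe set in both groups.

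**Figure D2:**
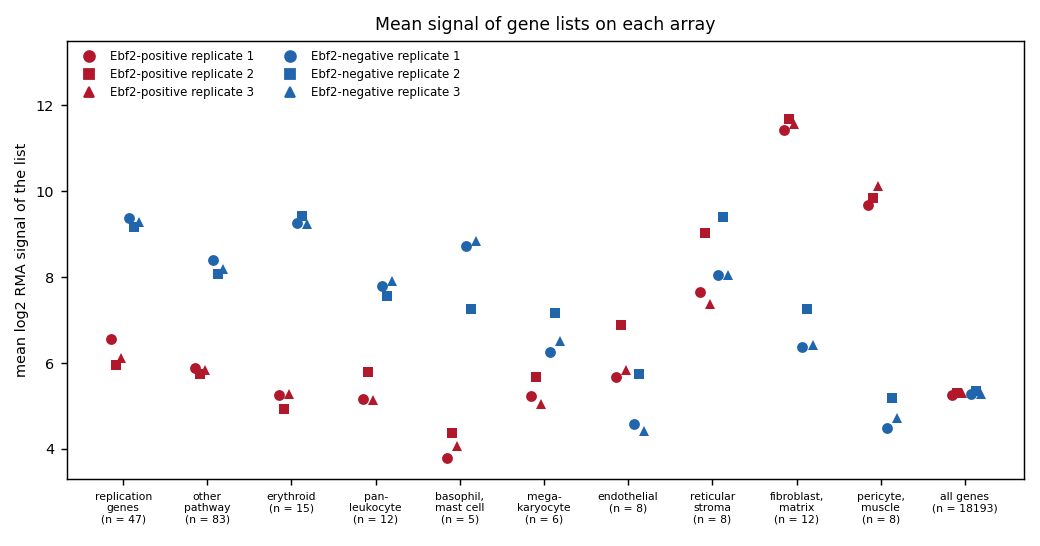
The mean log2 RMA signal of each gene list (x axis, n genes measured) on each array, with red for Ebf2-positive and blue for Ebf2-negative cells. The replication genes lie at 5.95 to 6.55 in the Ebf2-positive and 9.18 to 9.37 in the Ebf2-negative arrays, the erythroid markers at 4.92 to 5.28 and 9.25 to 9.42, and all genes at 5.26 to 5.34 on all 6.

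Genes of origin licensing were lower in 12 of 15 cases, 0 were higher, and the median difference was -3.26. Cdc6, the ATPase that joins the origin recognition complex to load the helicase, was at 6.23, 5.34 and 5.0 in Ebf2-positive cells against 10.19, 9.76 and 10.24 in the other group. This difference of -4.54 (SE 0.35, adjusted p = 0.000608) was the largest of the licensing genes, and the groups were more than 3 log2 units apart. Gmnn, which encodes geminin, the inhibitor of Cdt1, was at 7.13, 6.72 and 6.98 against 10.64, 10.32 and 10.54, a difference of -3.56 (SE 0.20, adjusted p = 0.000326). Its arrays were tightly spaced within each group.

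Cdt1, the loading factor that geminin binds, did not pass. Its signal was 9.88, 6.49 and 9.90 in Ebf2-positive cells against 11.94, 11.97 and 11.70 in the other group, a difference of -3.11 (SE 0.91, adjusted p = 0.0512). All Ebf2-positive arrays lay below all Ebf2-negative ones, with Ebf2-positive replicate 2 more than 3 log2 units below the other two of its group. Without that array the difference was -1.98 and was called (adjusted p = 0.00303), and without Ebf2-positive replicate 3 it was -3.68 (adjusted p = 0.0445). Another Cdt1 probe set was called lower in the test of single probe sets (-4.16, adjusted p = 0.0113).

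The genes of the helicase ring, Mcm2 to Mcm7, were all 6 called lower, by -2.48 for Mcm4 to -4.34 for Mcm5. Mcm5 stood at 7.39, 6.92 and 7.67 in Ebf2-positive cells against 11.79, 11.68 and 11.52 in the other group (SE 0.25, adjusted p = 0.000322). Mcm6 stood at 7.48, 7.13 and 7.52 against 11.28, 11.33 and 11.16, a difference of -3.88 (SE 0.20, adjusted p = 0.00029). Both were even within their groups, and neither gene came near an overlap. Mcm3, Mcm2 and Mcm7 differed by -3.65, -3.41 and -3.05. Each ring gene had 1 or more further probe sets called lower, by -2.27 to -4.79, although 3 other probe sets of Mcm3, Mcm5 and Mcm6 were not called.

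The subunits of the origin recognition complex were less uniform. Orc1, the subunit whose level varies most through the cell cycle, was at 3.51, 3.44 and 2.47 in Ebf2-positive cells against 7.33, 7.33 and 6.97 in the other group, a difference of -4.07 (SE 0.32, adjusted p = 0.000638). Its Ebf2-positive signals were below the median probe set, at 3.83. The other Orc1 probe set, nearly as bright over the 6 arrays, had group means of 4.83 and 5.45 and was not called (-0.62, adjusted p = 0.164 among probe sets), and the mean of both probe sets differed by -2.35 (adjusted p = 0.00137). Orc5 and Orc6 were lower by -3.26 and -1.62.

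Orc2 was at 6.85, 6.75 and 4.92 against 8.88, 8.02 and 8.39 (-2.25, SE 0.56, adjusted p = 0.0292). Its call was lost without Ebf2-negative replicate 1, 2 or 3 (adjusted p = 0.102, 0.0571 and 0.0901). Orc3 was at 7.49, 6.62 and 6.25 against 8.20, 7.79 and 7.70 and did not pass (-1.11, SE 0.35, adjusted p = 0.0664), although its groups did not overlap. It passed without Ebf2-positive replicate 1 (-1.46, adjusted p = 0.0153), with array weights (adjusted p = 0.0473) and as the mean of its 3 probe sets (-1.33, adjusted p = 0.00246). Of the other Orc3 probe sets, 1 was called lower (-2.13, adjusted p = 0.00354 among probe sets).

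Orc4 had the smallest difference of the 47 genes and was not called. It stood at 7.41, 7.18 and 6.54 against 6.82, 7.44 and 7.19 (-0.11, SE 0.30, adjusted p = 0.825), with overlapping groups. The sign of its difference was the opposite with further quantile normalization (0.10), with centring on the 75th percentile (0.01), and without Ebf2-positive replicate 3 (0.14) or Ebf2-negative replicate 2 (0.04). Of its 3 other probe sets, 0 were called by limma.

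To ask whether 1 partner of a pair differed more than the other, the log2 ratio of the pair was taken within each array. The ratio of Orc1 to Orc2 was -3.34, -3.31 and -2.44 in Ebf2-positive cells against -1.55, -0.68 and -1.41 in the other group. The groups did not overlap and differed by -1.82 (two-sided exact permutation p = 0.1, the smallest that 3 against 3 arrays allow, and 0.4 adjusted over the 4 ratios). The Orc1 signal in this ratio was below the median probe set on every Ebf2-positive array. With the other Orc1 probe set the ratio was higher in the Ebf2-positive cells, by 1.64 against the same Orc2 probe set. The other 3 ratios overlapped between groups. Gmnn over Cdt1 differed by -0.45 (exact permutation p = 0.8), Dbf4 over Cdc7 by 0.75 (p = 0.6) and Rrm2 over Rrm1 by 0.43 (p = 0.7), each 0.8 after adjustment. The first of these was 0.02 and 0.10 without Ebf2-positive replicate 1 or 3, and the last was -0.0094 without Ebf2-positive replicate 1. Their signs hung on the probe set as well. Gmnn over Cdt1 differed by 0.60 with the second Cdt1 probe set, Dbf4 over Cdc7 by -4.81 with the second Cdc7 probe set, and Rrm2 over Rrm1 by -1.07 and -0.50 with the other Rrm2 probe sets, where the one used can cross-hybridise. The Cdc7 probe set used was below the median probe set, at 3.83, on every Ebf2-positive array. The second lay near that median in both groups (means of 3.92 and 3.98), so the -4.81 largely repeats the difference of Dbf4 itself (-4.86). None of the 4 ratios therefore had a direction that held over the probe sets.

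The promoters of the licensing genes are shown because many of them carry the word that E2F factors bind. RefSeq windows of 250 bases before to 50 after a transcription start, on the build GRCm38.p6, were found for 39 of the 47 genes. The words searched on both strands were TTTCCCGC, TTTGGCGC, TTTCGCGC and TTTGCCGC, which can overlap each other where they face one another. Windows of Orc1, Orc3, Cdc6 and the ring genes with a single listed start, from 170 bases before to 30 after the start, read as follows from 5′ to 3′ on the gene's strand, with E2F words in capitals. They were chosen after the words had been located. Not printed are Orc2, Orc4, Orc5 and Orc6, whose windows held none of the words, and Cdt1 and Mcm7, which held some.
Orc1 (chr4:108579284-108579483, plus strand): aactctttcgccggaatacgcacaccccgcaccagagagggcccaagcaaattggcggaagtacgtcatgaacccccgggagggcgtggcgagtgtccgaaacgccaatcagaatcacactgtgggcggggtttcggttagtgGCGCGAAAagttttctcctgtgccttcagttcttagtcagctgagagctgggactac
Orc3 (chr4:34614913-34615112, minus strand): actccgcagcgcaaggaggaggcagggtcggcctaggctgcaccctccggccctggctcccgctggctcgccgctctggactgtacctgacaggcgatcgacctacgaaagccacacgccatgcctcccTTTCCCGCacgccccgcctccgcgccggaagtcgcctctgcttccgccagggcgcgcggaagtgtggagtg
Cdc6 (chr11:98907981-98908180, plus strand): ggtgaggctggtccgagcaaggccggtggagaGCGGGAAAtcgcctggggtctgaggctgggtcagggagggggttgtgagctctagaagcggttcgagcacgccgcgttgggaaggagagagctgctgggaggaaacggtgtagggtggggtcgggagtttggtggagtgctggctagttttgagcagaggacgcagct
Mcm2 (chr6:88898751-88898950, minus strand): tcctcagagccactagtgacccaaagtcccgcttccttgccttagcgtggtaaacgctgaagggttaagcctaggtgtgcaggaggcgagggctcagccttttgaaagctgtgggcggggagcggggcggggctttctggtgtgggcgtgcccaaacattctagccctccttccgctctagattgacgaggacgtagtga
Mcm3 (chr1:20820283-20820482, minus strand): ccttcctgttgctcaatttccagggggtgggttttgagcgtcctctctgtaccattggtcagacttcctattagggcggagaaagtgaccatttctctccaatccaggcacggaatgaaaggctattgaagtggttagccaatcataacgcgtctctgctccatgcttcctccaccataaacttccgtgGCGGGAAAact
Mcm5 (chr8:75109339-75109538, plus strand): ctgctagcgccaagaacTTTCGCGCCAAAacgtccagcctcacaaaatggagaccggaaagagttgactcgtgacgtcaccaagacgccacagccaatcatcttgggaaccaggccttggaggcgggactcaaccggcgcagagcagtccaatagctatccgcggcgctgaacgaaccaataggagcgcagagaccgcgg
Mcm6 (chr1:128359676-128359875, minus strand): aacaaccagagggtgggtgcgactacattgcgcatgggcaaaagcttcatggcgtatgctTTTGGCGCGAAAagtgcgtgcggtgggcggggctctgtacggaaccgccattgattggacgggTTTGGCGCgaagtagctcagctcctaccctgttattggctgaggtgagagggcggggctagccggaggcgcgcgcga
Counting from the first transcribed base as 1, with -1 just before it, the word of Orc1 began at -27, that of Cdc6 at -138 and that of Mcm3 at 20. In Mcm5 the words at -153 and -149 shared bases and faced one another. Mcm6 held such a pair at -110 and -106 and a further word at -47. The Mcm2 window held none of these words, and that of Orc3, which was not called, held 1. A match describes letters and not a bound site.

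In the full windows, 14 of 39 replication genes (35.9%) held an E2F word, against 550 of 14452 genes tested that have a window (3.81%). The share was 29.0% (20 of 69) among the other genes of the pathway, 5.95% (116 of 1951) among the remaining genes called lower, 2.89% (44 of 1524) among those called higher and 3.28% (356 of 10869) among those not called. Of the 34 called replication genes with a window, 12 held a word, and of the 5 not called, 2 did (Orc3 and Cdt1). The letters CCAAT were in 59.0% of replication genes against 42% of tested genes and GGGCGG in 76.9% against 57.3%, while TTTGAA was in 17.9% against 15.7%, each searched on both strands. Median GC content was 60.2% and 58.7%. These shares are descriptions with no test, and a gene with several listed starts counts once.

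**Figure D3:**
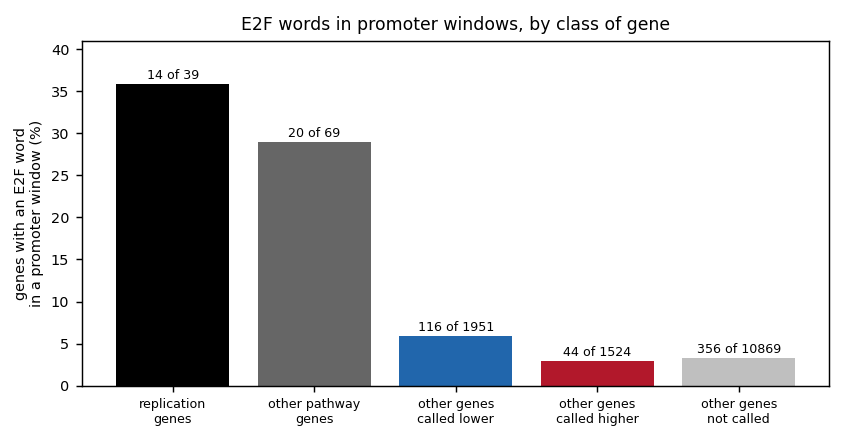
The share of genes with an E2F word in a promoter window (y axis, %), by class of gene (x axis), with the number of genes above each bar. The bar of the replication genes stands at 35.9% and that of the other pathway genes at 29.0%, and the remaining classes lie between 2.89% and 5.95%.

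With the brightest probe set of each gene, origin firing and helicase activation had the lowest median difference of the 6 role groups, -4.03. With the mean of all probe sets of a gene, that group did not have the lowest median. All 8 genes of origin firing and helicase activation were called lower. Cdc7, the kinase that fires origins, was at 3.45, 2.03 and 2.60 in Ebf2-positive cells against 9.22, 7.12 and 8.58 in the other group, a difference of -5.61 (SE 0.61, adjusted p = 0.0017). Its Ebf2-positive arrays were all below the median probe set. Dbf4, the activating subunit of Cdc7, was at 5.91, 3.63 and 2.09 against 9.14, 8.72 and 8.36 (-4.86, SE 0.91, adjusted p = 0.0106). Its Ebf2-positive arrays spanned nearly 4 log2 units, and the groups were still apart.

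Mcm10, which helps to open the helicase ring, was at 4.54, 5.39 and 4.04 against 9.97, 9.65 and 9.80, a difference of -5.15 (SE 0.36, adjusted p = 0.000449). Gins2, a subunit of GINS, was at 4.41, 5.0 and 4.34 against 8.80, 8.42 and 8.75 (-4.07, SE 0.25, adjusted p = 0.000354). The groups of both genes were at least 3 log2 units apart. Gins1, Cdc45 and Gins3 differed by -3.98, -3.41 and -3.21, and Gins4 by -2.16. Second probe sets of Cdc7, Dbf4, Cdc45 and Gins3 and both others of Mcm10 were not called. Their group means lay between 1.99 and 4.17, near or below the median probe set. As the mean of all its probe sets, Cdc7 differed by -2.84, Mcm10 by -1.91, Dbf4 by -2.48, Cdc45 by -1.59 and Gins3 by -1.87, each still called lower (adjusted p = 0.00195, 0.00194, 0.0147, 0.016 and 0.0114).

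Primase and polymerase genes were all 8 called lower, with a median of -2.66, and they held most of the calls that hung on single arrays. Pola1, the catalytic subunit of the polymerase that starts each strand, was at 6.81, 4.41 and 3.25 in Ebf2-positive cells against 8.26, 8.25 and 8.41 in the other group (-3.48, SE 0.84, adjusted p = 0.0269). Pole, the catalytic subunit of the leading-strand polymerase, was at 6.71, 4.0 and 6.48 against 8.94, 8.90 and 8.93 (-3.19, SE 0.70, adjusted p = 0.0194). In both genes the Ebf2-negative arrays lay within 0.2 log2 units and the Ebf2-positive ones were widely spread. Prim1, the catalytic primase subunit, was at 7.42, 5.17 and 6.66 against 9.25, 9.18 and 9.68 (-2.96, adjusted p = 0.0113). Prim2, its partner, was at 6.52, 5.39 and 6.34 against 8.62, 8.85 and 9.11 (-2.78, SE 0.34, adjusted p = 0.00257). Ebf2-positive replicate 2 was the lowest array for Pole, Prim1, Prim2, Pold1 and Pole2.

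Pold1, the catalytic subunit of the lagging-strand polymerase, and Pole2 differed by -2.54 and -2.52, and the accessory subunits Pold2 and Pola2 by -1.54 and -1.49. Pola1 lost its call without Ebf2-positive replicate 2 (adjusted p = 0.0687) and without Ebf2-negative replicate 1, 2 or 3 (0.0832, 0.0747 and 0.0896). Pola2 lost it without the same 4 arrays (0.0509, 0.0674, 0.0747 and 0.065), and Pole without Ebf2-negative replicate 1, 2 or 3 (0.0662, 0.0584 and 0.0682). Pold2 lost its call without Ebf2-positive replicate 1 or 2 (0.102 and 0.0936) or Ebf2-negative replicate 2 or 3 (0.121 and 0.129), and Pold1 without Ebf2-negative replicate 3 (0.0538). The differences kept their sign in each case.

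The sliding clamp and 4 of the 5 genes of its loader were called lower, with a median of -3.23 for the 6. Pcna, the clamp that holds polymerases on DNA, was at 7.02, 9.15 and 6.64 in Ebf2-positive cells against 10.51, 10.84 and 10.94 in the other group, a difference of -3.16 (SE 0.64, adjusted p = 0.0147). Here Ebf2-positive replicate 2 was the highest of its group, by more than 2 log2 units. The call was lost without Ebf2-negative replicate 3 (-3.07, adjusted p = 0.0591). Rfc5, a small loader subunit, was at 5.91, 4.23 and 5.70 against 9.13, 8.94 and 8.68 (-3.63, adjusted p = 0.00284), and Rfc3 at 4.06, 3.31 and 3.73 against 7.71, 7.02 and 7.10 (-3.58, adjusted p = 0.000697). Rfc4 was at 7.43, 5.17 and 5.97 against 9.02, 9.63 and 9.82 (-3.30, adjusted p = 0.00852), and Rfc2 differed by -2.60. In each of these subunits the groups were apart.

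Rfc1, the large loader subunit, was at 8.63, 8.03 and 7.37 against 9.45, 8.98 and 8.97. Its difference of -1.12 (SE 0.35, adjusted p = 0.0652) did not pass, with groups that did not overlap, and it passed without Ebf2-positive replicate 1 (-1.43, adjusted p = 0.0256), with array weights (adjusted p = 0.0468) and as the mean of its 3 probe sets (-1.35, adjusted p = 0.0115). Of its 2 other probe sets, 1 was called lower (-1.42, adjusted p = 0.0191 among probe sets).

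Single-strand binding and lagging-strand genes were all 5 called lower, with a median of -2.68. Lig1, the ligase that joins lagging-strand fragments, was at 7.18, 6.73 and 5.15 in Ebf2-positive cells against 10.14, 10.03 and 9.94 in the other group (-3.69, SE 0.51, adjusted p = 0.00386). Fen1, the nuclease that trims those fragments, was at 9.15, 9.10 and 9.30 against 11.96, 11.86 and 11.76 (-2.68, SE 0.18, adjusted p = 0.000393). Fen1 had the smallest standard error of the 47 genes. Rpa2, the middle subunit of the single-strand binding protein, was at 7.20, 5.41 and 5.60 against 9.81, 9.62 and 9.63 (-3.61, adjusted p = 0.0033). Rpa1, the large subunit, was at 10.04, 9.08 and 9.79 against 11.84, 11.55 and 11.58 (-2.02, adjusted p = 0.00425), and Rpa3, the small one, differed by -2.01. All 5 genes had groups that did not overlap.

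Nucleotide supply genes were called lower in 4 of 5 cases, with a median of -3.34. Tk1, the thymidine kinase of dividing cells, was at 3.64, 4.03 and 4.55 in Ebf2-positive cells against 7.90, 8.52 and 8.38 in the other group, a difference of -4.19 (SE 0.30, adjusted p = 0.000501). Dut, which removes dUTP from the nucleotide pool, was at 6.73, 7.04 and 6.63 against 11.08, 10.48 and 10.66 (-3.94, SE 0.24, adjusted p = 0.000354). Both had groups more than 3 log2 units apart. Of the subunits of ribonucleotide reductase, which makes deoxynucleotides, Rrm1 was at 6.33, 6.98 and 6.54 against 10.19, 9.93 and 9.76 (-3.34, SE 0.24, adjusted p = 0.000504). Rrm2, the S-phase subunit, was at 8.66, 6.84 and 8.66 against 10.85, 10.83 and 11.20 (-2.91, SE 0.51, adjusted p = 0.0088). The other probe sets of Rrm2 fell by 4.42 and 3.84.

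Tyms, thymidylate synthase, was at 3.17, 6.11 and 3.05 against 5.89, 4.81 and 5.21. Its groups overlapped, because Ebf2-positive replicate 2 was the highest of all 6 arrays, and the difference of -1.19 did not pass (SE 0.84, adjusted p = 0.366). Without that array it was -2.19 and was called (adjusted p = 0.0104). The 3 other Tyms probe sets were not called, and 2 of them lay below the median probe set in both groups.

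**Figure D4:**
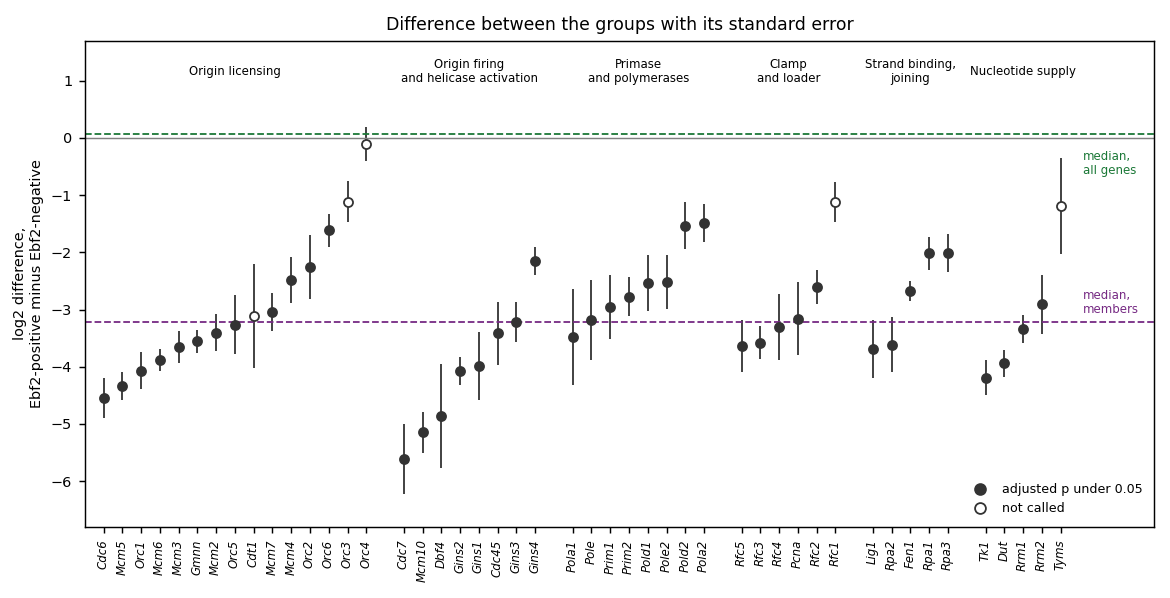
The log2 difference of each of the 47 genes (points, grouped by role and ordered by difference) with its standard error (bars), where filled points were called by limma and open points were not. The dashed lines mark the median of all genes (0.07) and of the 47 (-3.21), and the 5 open points are Cdt1, Orc3, Orc4, Rfc1 and Tyms.

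Within the Ebf2-positive group the replication genes varied more than within the Ebf2-negative group. The SD over the 3 arrays was larger in the Ebf2-positive group for 42 of the 47 genes, with medians of 0.63 and 0.23. Over all genes the SD was larger there for 67.8%, with medians of 0.38 and 0.24. Ebf2-positive replicate 1 was the highest of its group for 25 of the 47 genes and replicate 2 the lowest for 25. The mean log2 signal of the 47 was 6.55, 5.95 and 6.11 on those arrays and 9.37, 9.18 and 9.29 on the Ebf2-negative ones. The erythroid markers, at 5.26, 4.92 and 5.28, were also lowest on Ebf2-positive replicate 2. The other blood-cell lists were highest there. The pan-leukocyte markers stood at 5.17, 5.78 and 5.14, the basophil and mast cell markers at 3.80, 4.37 and 4.07, and the megakaryocyte markers at 5.24, 5.66 and 5.05.

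The 47 genes have 103 probe sets that name them alone, 56 of them beside those chosen. Of the 56, 29 were called lower, 0 higher and 27 not, in the test of all 45037 probe sets, where 8.76% were called lower and 6.39% higher. Among the 27, 12 were below the median probe set in both groups. The other probe sets had the sign of the chosen one in 47 of 56 cases.

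The other genes of the pathway, in 4 lists that share no gene with the 47, were mostly lower too. Of 83 measured, 62 were called lower and 1 higher, with a median difference of -2.49. The count was 48 when Ebf2-negative replicate 1 was dropped, in a fit that called 8.72% of all genes lower. For 11 of the 83 the mean lay below the median probe set in the Ebf2-positive cells alone, so their differences and ranks are not exact. Among the genes named below these are Clspn, Ccne2, E2f8, Hells and Dctd. Of 29 other fork and origin factors, 22 were lower and 0 higher (median -2.32). Wdhd1, which ties the helicase to the polymerase, was at 4.79 ± 0.69 (SD, n = 3) in Ebf2-positive cells against 9.92 ± 0.21 in the other group (-5.13), and Clspn, a mediator of the replication checkpoint, at 3.49 ± 0.67 and 8.17 ± 0.12 (-4.68). Dna2, a nuclease of the lagging strand (-5.12), lost its call without Ebf2-positive replicate 3 (adjusted p = 0.0618) or any of the Ebf2-negative arrays (0.0819, 0.0593 and 0.0736). Dtl, the adaptor that marks Cdt1 for destruction, differed by -4.51.

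Regulators of S-phase entry were lower in 17 of 23 cases and higher in 1 (median -2.14). Ccne2, a cyclin E, was at 2.63 ± 1.08 in Ebf2-positive cells against 8.05 ± 0.77 in the other group (-5.42), Tfdp2, a partner of E2F factors, at 3.96 ± 0.83 and 9.12 ± 0.13 (-5.16), and E2f8, an E2F repressor of S phase, at 3.46 ± 0.48 and 8.36 ± 0.24 (-4.90). Ccna2, cyclin A, differed by -4.0. The higher gene, named after its value was seen, was E2f5, an E2F that acts with pocket proteins in resting cells, at 8.69, 8.46 and 8.14 against 6.73, 6.89 and 7.20 (1.49, SE 0.23, adjusted p = 0.00581). Its difference was -0.99 and not called with centring on the poly-A controls, a scaling described below.

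Genes of chromatin assembly at the fork were lower in all 11 measured cases (median -2.98). Chaf1b, of the histone chaperone CAF-1, was at 3.94 ± 1.05 and 8.36 ± 0.19 (-4.42), and Uhrf1, which guides methylation of new DNA, at 4.93 ± 0.28 and 9.12 ± 0.71 (-4.20). Nasp, a histone chaperone, differed by -3.58, but by 0.12 without probe sets that can cross-hybridise. Hells, a chromatin remodeller, was at 2.46, 2.36 and 6.30 against 8.68, 8.10 and 8.35 (-4.67) and lost its call without Ebf2-positive replicate 1 (adjusted p = 0.0594) or any of the Ebf2-negative arrays (0.0734, 0.0553 and 0.0694). Of 20 other nucleotide synthesis genes, 12 were lower and 0 higher (median -1.62). They included the purine enzymes Ppat (-4.35) and Gart (-3.25), the deaminase Dctd (-3.44) and the folate enzyme Mthfd1 (-3.34).

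**Figure D5:**
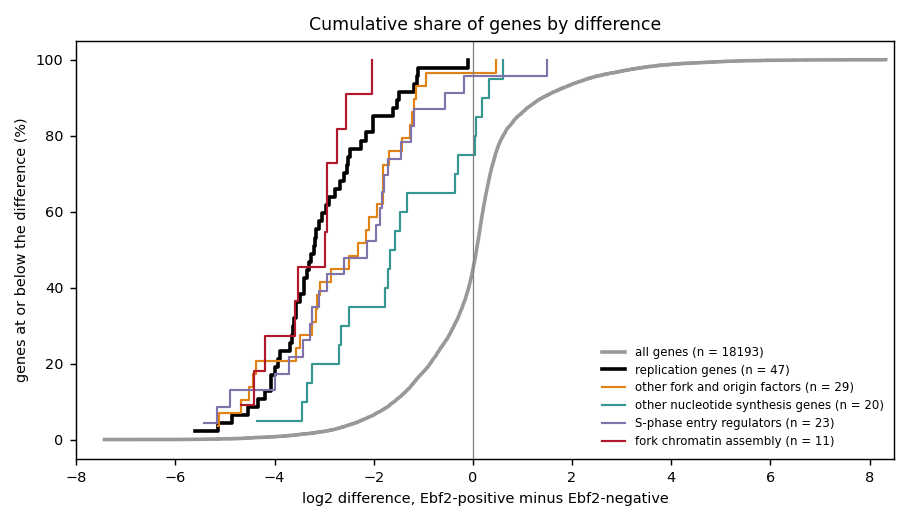
Cumulative share of genes (y axis, %) at or below a given log2 difference (x axis) for all 18193 genes, the 47 replication genes and the 4 lists of other pathway genes. The curve of the replication genes lies left of 0 throughout, with its median at -3.21, and that of all genes crosses its middle at 0.07.

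Because RMA gives all arrays much the same distribution of signals, each difference is relative to the other genes. The poly-A controls, foreign RNAs added to the samples, had a mean log2 signal of 12.2 to 12.6 on the Ebf2-positive and 8.70 to 10.5 on the Ebf2-negative arrays. Centred on them, all 47 replication genes were called lower, with a median of -5.69, but so were 85.7% of all genes, whose median was -2.41 (15596 lower and 227 higher, against 2469 and 1961 on the RMA scale). An error in the control mean of an array shifts all its genes alike, and limma, which pools the spread over genes, takes no account of that. Calls under this scaling therefore have no reliable error rate. With 3 arrays a group, precision is limited by their number.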

How the data were processed

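The authors deposited an intensity for every probe set on every array, computed with RMA per the submitters' processing notes, which name no version for it. RMA corrects background, equalises quantiles and summarises probes. The deposited intensity values are linear, and log2 was taken. Of 45101 probe sets, 64 are controls. GEO's platform annotation names 1 gene for 34945 probe sets, several for 932 and none for 9160. The 18193 genes were fitted with limma 3.58.1 (lmFit and eBayes, two-sided) in R 4.3.3 on 6 arrays, 3 per group, and the fit was checked on simulated data. The threshold was an adjusted p of 0.05.

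The 47 genes and the lists were chosen with earlier results of these data known. Genes given array by array were the 4 called genes of each role group with the largest differences, bright genes not called and the partners of the ratios. Tyms, Hells and E2f5 were given array by array outside this rule, after their values were seen. Up to 4 called genes of each pathway list and 2 of each marker list were named, and a few others after their values were seen. Of the listed genes, 3 pathway genes and some markers have no probe set used here. Of the chosen probe sets of the 47, 9 end in _x_at or _s_at and can cross-hybridise. Figures used matplotlib 3.10.9 in Python 3.11.15.

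Alternatives were other normalizations, filters on dim genes, other probe set choices and variance models, a minimum difference (treat), the replicate number as a block, and leaving out arrays. Other probe sets for the ratios were added after seeing the data.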

Additional observations from a re-analysis of the deposited data

How the results depend on the processing

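The 47 replication genes were refitted under 19 alternatives. Of the 42 called lower, 26 were called under all 19, and 35 when any single array was left out. The count of lower genes was 35 to 43 with single arrays left out and 28 with a required difference above 1 on the log2 scale (treat). It was 47 with centring on the poly-A controls, where calls have no reliable error rate. Over all genes, 7.67% to 13.6% were called lower with single arrays left out, 3.62% with treat and 85.7% with poly-A centring. The count of higher genes was 0 under every one of the 19. Further quantile normalization lost the calls of Orc2, Pola2 and Pold2, and leaving out both arrays numbered 2 lost those of Dbf4 and Cdc45 (adjusted p = 0.0763 and 0.0567) with Orc2, Pola1, Pola2 and Pold2. The difference of Orc4 was 0.1041 with further quantile normalization and 0.01324 with the 75th percentile, -0.2885 to 0.1434 with single arrays left out and -2.59 with poly-A centring. Of the other pathway genes, 48 to 60 were called lower with single arrays left out and 35 with treat. The 1 higher gene among them, E2f5, was not called with treat, with poly-A centring or without both arrays numbered 2, which left 0, and the causes were not tested. With single arrays left out, the ratio of Gmnn to Cdt1 differed by -1.47 to 0.10, that of Rrm2 to Rrm1 by -0.009421 to 1.22, that of Dbf4 to Cdc7 by 0.11 to 1.60 and that of Orc1 to Orc2 by -2.11 to -1.55. Over all pairs of probe sets not below the median in both groups, an alternative chosen after seeing the data, each ratio took both signs, in equal numbers of pairs. The reversed values were 1.635, 1.836 and 0.1138 for Orc1 to Orc2, 0.6032 for Gmnn to Cdt1, -4.806 for Dbf4 to Cdc7, and -1.074, -0.5637 and -0.4987 for Rrm2 to Rrm1.

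Both groups carry replicates 1, 2 and 3 in the labels. Deviations from the group means correlated at 0.0582, 0.106 and 0.0287 between arrays of the same number. Each was the highest value for that Ebf2-positive array, while Ebf2-negative replicate 3 correlated best with Ebf2-positive replicate 1 (0.0421). The labels do not call arrays of the same number pairs, so the main fit did not pair them. Whether such arrays share a source was not tested. With the replicate number as a block, 44 replication genes were called lower and 0 higher, and 60 other pathway genes lower and 1 higher. Over all genes, that fit called 12.8% lower. The block called Orc3 (-1.11, adjusted p = 0.038) and Rfc1 (-1.12, adjusted p = 0.0414), which were not called without it. The deposited RMA values carry no detection call, so a gene below the median probe set has no exact fold.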

Other observations

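Of the 20 other nucleotide synthesis genes, 8 were not called. They included 4 known to act outside S phase, picked here after their values were seen. Rrm2b, the ribonucleotide reductase subunit used by resting cells, was at 7.06 ± 0.51 (SD, n = 3) in the Ebf2-positive group and 6.46 ± 0.50 in the other, 0.60 apart (limma adjusted p = 0.295). The mitochondrial deoxynucleoside kinases Tk2 and Dguok differed by 0.06 and 0.31 (adjusted p = 0.928 and 0.449), and Samhd1, which degrades deoxynucleotides, by 0.05 (adjusted p = 0.918). With poly-A centring, where calls have no reliable error rate, these 4 differences were -1.88, -2.42, -2.17 and -2.43 and were called lower. The difference of Samhd1 was -0.20 and that of Tk2 -0.07 without Ebf2-negative replicate 3, and that of Samhd1 was -0.0072 with centring on the array median and that of Tk2 -0.32 without Ebf2-positive replicate 3. The S-phase counterparts Rrm2 and Tk1 differed by -2.91 and -4.19. Whether Rrm2b and Rrm2 differ from each other in this respect was not tested. The remaining nucleotide synthesis genes not called, Umps, Shmt1, Impdh1 and Ctps2, were not picked for such a role. They differed by -1.46, -0.31, -0.35 and 0.18. As the mean of all probe sets of a gene, Umps and Shmt1 were called lower (-1.3 and -0.77, limma adjusted p = 0.00311 and 0.018). Whether a role outside S phase goes with the lack of a call was not tested.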
